A study of Mus musculus with 15 samples.

Results

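In the periprostatic fat of obese male mice given estradiol, 64 genes of the 5494 expressed at the level considered stood outside the range of both lean and obese mice. For 46 of them all 5 estradiol libraries lay above all 10 other libraries, and for 18 all 5 lay below. The genes were chosen by these same values, in FPKM (sequenced fragments per transcript length, set against the library's total) scaled across libraries by median of ratios, and the mean on the higher side had to reach 1. The differences between estradiol and the other mice are therefore given as a description, with no test. Spon1, Plod2, Akr1cl, Gpx3, Il4ra and Gas6 had the widest gaps above the other mice, and Gramd1b, Fabp5, Gpd1 and Fam213b the widest gaps below them.

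All mice were male C57BL/6J, the fat around the prostate was taken at 26 weeks of age, and each group held 5 animals. The LFD group ate a diet with 10 kcal% fat from 6 weeks of age and had no pellet. Mice of the HFD placebo group ate 60 kcal% fat from the same age and received a placebo pellet under the skin after 12 weeks of diet. The HFD estradiol group had the same high-fat diet and timing, with a pellet of 0.25 mg 17β-estradiol that released over 60 days, and was killed 8 weeks after implantation. No LFD group with a pellet and no LFD group with estradiol was part of the comparison, so the estradiol values are those of mice on the high-fat diet only, and diet and pellet placement differ together between LFD and the other groups.

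Estradiol is the main circulating estrogen and acts mostly through estrogen receptor alpha, a nuclear receptor that binds DNA at estrogen response elements and also works through other transcription factors. Fat cells, their progenitors, vessel cells and macrophages can carry the receptor. In adipose tissue, estrogens are known to limit fat gain and inflammation.

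The lowest and highest sums of FPKM were 34449 and 38755 for lean mice, 34544 and 105910 for placebo mice and 37561 and 60725 for estradiol mice, and the ribosomal entry Mir6236 took 10.2% to 53.1% of a library. Read counts were not used here. From the spacing of the lowest values, the minimum level of 1, for a transcript of 2 kb, was put at 20.5 to 40.1 fragments for lean, 35.0 to 223 for placebo and 36.6 to 96.6 for estradiol mice, so low values are least precise in LFD. By file name, the lean mice were sequenced on lane 5 and the estradiol mice on lane 6, while placebo mice 1 to 3 were on lane 5 and placebo mice 4 and 5 on lane 6. Adipocyte genes were high in every library: Adipoq, the adiponectin gene, was at 139 to 187 with estradiol, 58.5 to 116 with placebo and 130 to 193 in LFD. Markers of male accessory gland and epithelium summed to 0.188 to 0.667 in the estradiol libraries and to 130 in LFD mouse 5, and brown fat genes summed to 99.2 in LFD mouse 2, against 7.65 to 28.8 with estradiol. In bulk tissue, fewer cells of a type and less RNA per cell cannot be told apart.

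The 46 genes above were 0.837% of the 5494 genes at the level minimum, and the 18 below were 0.328%. Of the remaining genes, 1054 were apart from HFD placebo but overlapped LFD, 317 were apart from LFD but overlapped placebo, 35 and 41 lay between the other groups without overlap (LFD below and placebo above, and the reverse), and 3983 overlapped both. Mean levels with estradiol were a median of 1.88 times those of the 10 other libraries among the genes above, from 1.16 for Rnf146 to 13.2 for Spon1; Akr1cl, listed at 0 in the others, has no ratio. Among the genes below, the 10 others stood a median of 1.66 times above estradiol, from 1.20 for Erlin2 to 3.59 for Lctl. The ratio was 2 or more for 17 genes above and 6 below. The level minimum separated Kdelc2 at 1.02 from Pcsk5 at 0.992 on the upper side, and Gramd1b at 1.09 from B3glct at 0.903 on the lower side.

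These counts depended on how libraries were scaled. With FPKM as deposited, 2 genes lay above and 0 below, with library sums set equal 34 and 2, and with sums set equal after leaving out Mir6236 52 and 8. Of the 46 and 18 genes, 16 and 1 remained with equal sums and 33 and 7 without Mir6236. The share of genes lying above was 71.9% as chosen, 94.4% with equal sums and 86.7% without Mir6236. The median log2 difference of all 5494 genes between estradiol and the others was -0.003 as scaled, 0.11 as deposited and 0.10 with equal sums. The sign of each of the 64 differences was the same under all of these scalings and with upper quartile scaling, which gave 51 and 17. The genes were chosen for no overlap in these same libraries, which favours kept signs. Spon1 and Akr1cl met the rule under all 4 other scalings, and 11 more genes above and Gramd1b below met it under 3. Leaving out 1 library raised the count above most for estradiol mouse 1, to 78, and the count below to 29 without LFD mouse 2 and to 30, 30 and 31 without estradiol mice 1, 2 and 5.

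**Figure D1:**
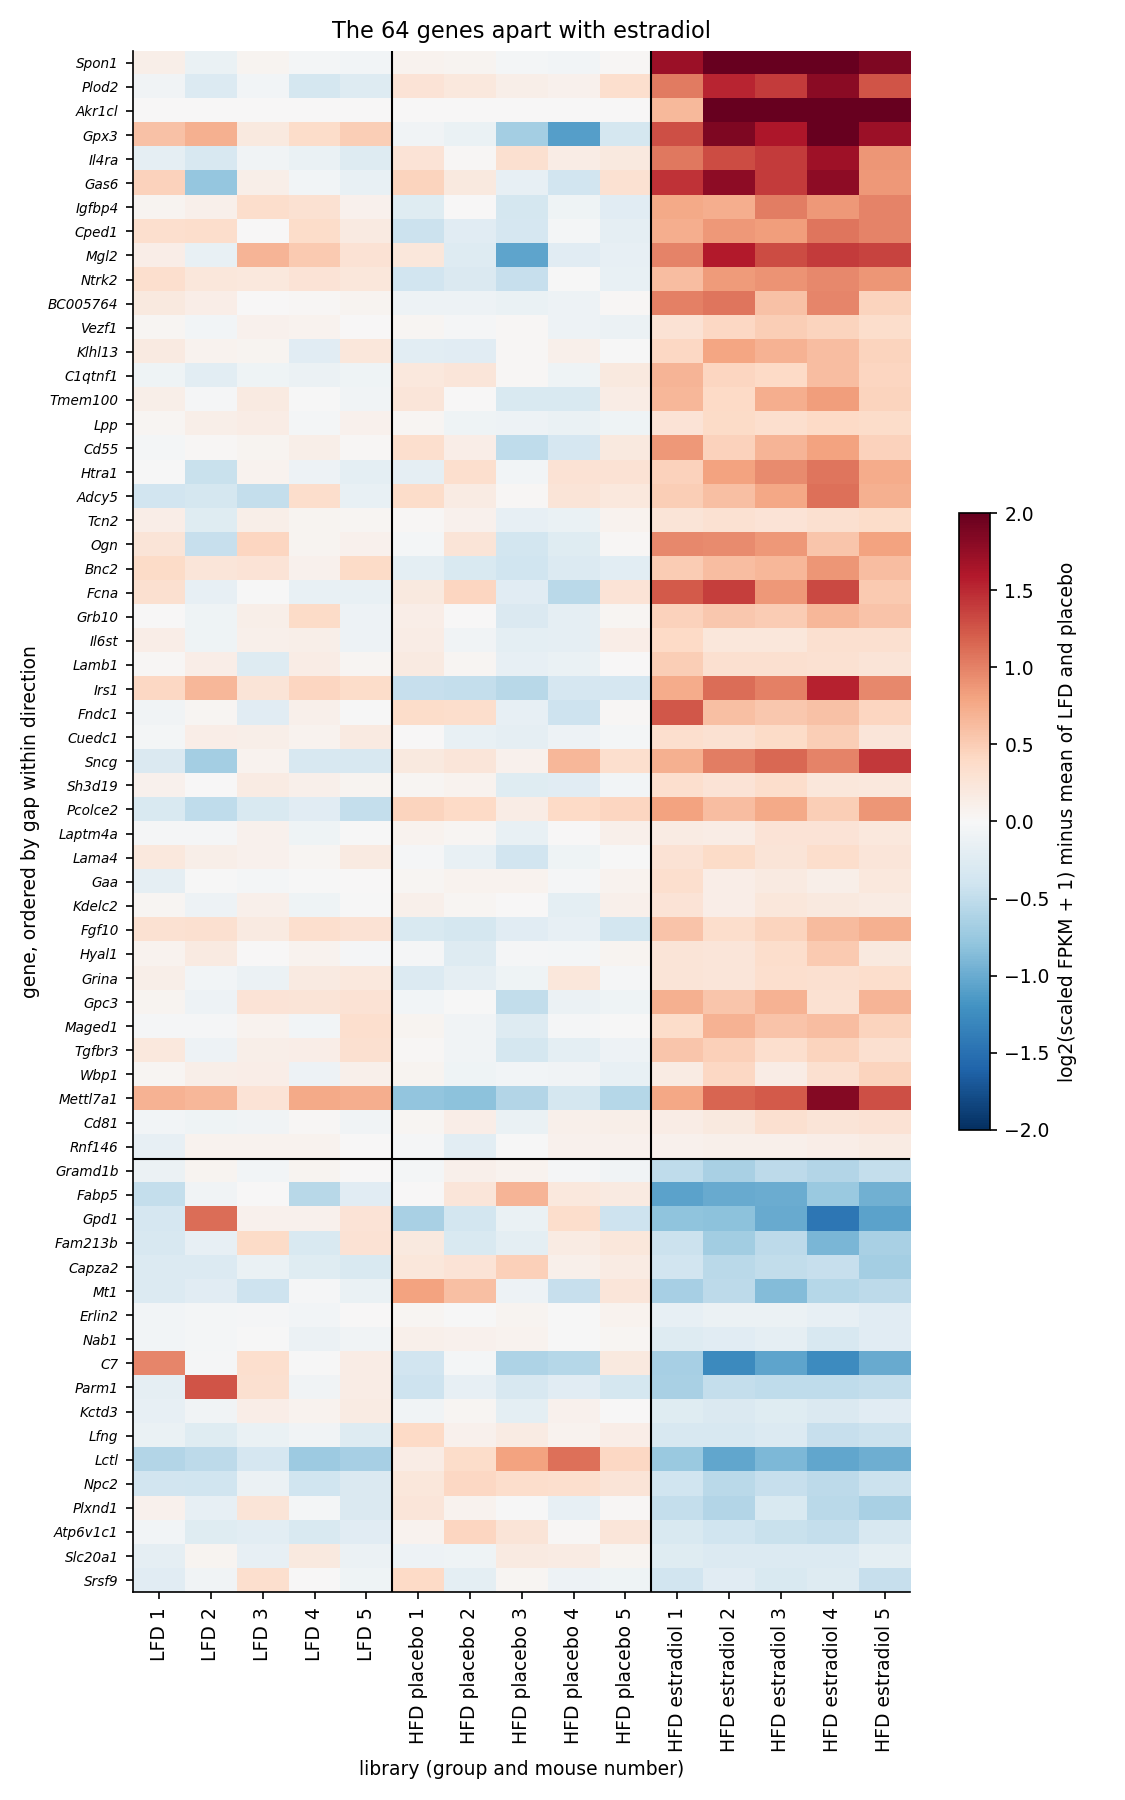
Each row is 1 of the 64 genes and each column 1 library; colour gives log2(scaled FPKM + 1) minus the mean of the 10 LFD and placebo libraries, with values beyond -2 and 2 shown in the end colours. The 46 genes in the upper block are red and the 18 in the lower block blue in all 5 estradiol columns, and Rnf146 and Srsf9 at the block ends show the smallest gaps.

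Akr1cl was the only 1 of the 64 genes that was listed at 0 in all other mice. Akr1cl, a member of the aldo-keto reductase family 1, whose relatives reduce steroids and other carbonyl compounds (chromosome 1, 65012689 to 65032759, GRCm38, protein coding), had scaled FPKM of 0.559, 5.31, 3.80, 9.41 and 4.67 in estradiol mice 1 to 5. It was listed at 0 in all 5 placebo and all 5 LFD libraries. Estradiol mouse 1 was far below the other 4 of its group, and its value is the whole gap to the lean and obese mice. No fold can be given against values listed at 0.

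Gpx3 encodes the secreted glutathione peroxidase, an antioxidant enzyme of plasma that fat tissue also makes (chromosome 11, 54902453 to 54910377). Its scaled FPKM was 37.5, 56.3, 47.5, 87.2 and 50.4 in estradiol mice 1 to 5. Placebo mice had 14.0, 13.4, 8.88, 6.33 and 11.3, and LFD mice 22.7, 24.9, 17.0, 19.3 and 21.1. All 3 groups were apart, in the order placebo, LFD, estradiol, and the estradiol mean of 55.8 ± 18.8 (SD, n = 5) was 5.18 times placebo and 2.66 times LFD. Among 21 antioxidant genes at the level minimum, Gpx3 alone was outside both groups, and the median log2 difference of the list was -0.05, against -0.003 for all genes.

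Mettl7a1, a methyltransferase-like protein of lipid droplets and endoplasmic reticulum, had the same order at 11.9, 16.0, 16.7, 26.2 and 17.6 with estradiol. Its LFD values reached 11.8, just below estradiol mouse 1, and its placebo values ran from 3.31 to 4.91. The lean and estradiol mice thus nearly touched for this gene, whereas Gpx3 left a wide gap.

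Genes of the extracellular matrix make up the next group. Spon1, which encodes the extracellular matrix protein F-spondin (chromosome 7, 113765998 to 114043370), had scaled FPKM of 3.46, 6.34, 4.61, 5.79 and 3.98 in estradiol mice 1 to 5. Placebo mice had 0.433, 0.420, 0.331, 0.311 and 0.382, and LFD mice 0.484, 0.251, 0.422, 0.325 and 0.316. The lean and obese values overlapped fully, and the lowest estradiol mouse stood well above the highest of them; the means were 4.84 ± 1.21 (SD, n = 5) with estradiol, 0.375 ± 0.053 with placebo and 0.360 ± 0.093 in LFD.

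Plod2, the lysyl hydroxylase that prepares collagen for stable cross-links (chromosome 9, 92542223 to 92608428), had 1.83, 2.94, 2.61, 3.77 and 2.26 with estradiol. Its placebo values were 0.649, 0.579, 0.482, 0.457 and 0.727, and its LFD values 0.299, 0.127, 0.317, 0.0789 and 0.150. Here the obese mice lay above the lean, and estradiol lay further on the same side, at 4.63 times the placebo mean and 13.8 times the LFD mean. The procollagen processing enhancer Pcolce2 had the same order, at 3.09 to 4.32 with estradiol, 2.23 to 2.95 with placebo and 1.04 to 1.47 in LFD.

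Laminin chains of basement membranes were outside the other groups by small margins. Lamb1, the beta-1 chain, ran from 4.59 to 5.60 with estradiol and from 2.92 to 4.30 in the other 10 libraries. Lama4, the alpha-4 chain of adipocyte and vessel basement membranes, ran from 6.97 to 7.77 with estradiol and from 4.19 to 6.77 in the others. Among 38 non-collagen matrix and remodelling genes at the level minimum, Spon1, Lamb1 and Lama4 were above and 0 below, with a list median log2 difference of 0.17. That list's summed level overlapped placebo, at 332 to 422 with estradiol, 317 to 479 with placebo and 207 to 309 in LFD. The median sum with estradiol, 364, lay between 289 in LFD and 424 with placebo. None of 15 collagen genes was outside both groups, and their median was -0.21.

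Further secreted or matrix-bound products lay above. The small leucine-rich proteoglycan Ogn averaged 12.5 ± 1.47 with estradiol, 6.31 ± 1.23 with placebo and 7.16 ± 1.75 in LFD (SD, n = 5 each). The secreted serine protease Htra1 averaged 8.76 ± 1.53 with estradiol, 5.15 ± 0.97 with placebo and 4.08 ± 0.68 in LFD. Ratios to the 10 others were 2.21 for Fndc1, a fibronectin type III domain protein, 1.95 for Gpc3, a heparan sulfate proteoglycan of the cell surface, and 1.52 for Hyal1, a hyaluronidase. Fndc1 was at 3.73 in estradiol mouse 1 and at 1.71 to 2.06 in the other 4.

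A second group belonged to macrophages and to cytokine reception. Il4ra, the receptor chain shared by interleukin-4 and interleukin-13 (chromosome 7, 125552120 to 125579474), had scaled FPKM of 3.03, 3.76, 4.12, 5.25 and 2.57 in estradiol mice 1 to 5. Placebo mice had 1.35, 0.959, 1.41, 1.13 and 1.22, and LFD mice 0.708, 0.557, 0.844, 0.757 and 0.609. The order was LFD, placebo, estradiol with no overlap, and the estradiol mean was 3.08 times placebo and 5.39 times LFD. Il6st encodes gp130, the signalling chain for interleukin-6 family cytokines, and differed little in size, at 7.89 to 9.05 with estradiol against 5.62 to 7.42 in the others. These were the only 2 of 13 genes at the level minimum in the list of JAK, STAT, SOCS and receptor genes that lay outside both groups, and the list's median log2 difference was 0.12.

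Mgl2, the C-type lectin CD301b of alternatively activated macrophages and dendritic cells (chromosome 11, 70130329 to 70137550), had 4.65, 7.53, 5.99, 6.49 and 6.22 with estradiol. It had 2.31, 1.38, 0.367, 1.43 and 1.52 with placebo and 2.12, 1.56, 3.52, 3.06 and 2.47 in LFD. Its estradiol mean was 4.41 times placebo and 2.43 times LFD, with the lean and obese ranges overlapping each other. Gas6, the ligand of the Tyro3, Axl and Mer receptors that help clear dying cells (chromosome 8, 13465374 to 13494490), had 12.7, 16.3, 12.2, 16.3 and 8.19 with estradiol. The other mice ran from 2.85 to 5.87 with placebo and from 1.93 to 5.93 in LFD, so the lean and obese mice shared a range and every estradiol mouse was above it. Fcna, a ficolin of the lectin complement pathway made by macrophages, ran from 3.20 to 6.61 with estradiol and from 1.00 to 2.91 in the others.

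Mgl2 and Gas6 were 2 of 16 genes at the level minimum in the list of tissue-resident and alternatively activated macrophage genes. The list's median log2 difference was 0.55. With estradiol, 14 of the 16, Mgl2 and Gas6 among them, had means above that of the lean and obese mice pooled. No share over all genes stands beside this count. Such a gene can lie below placebo: Mrc1 of this list averaged 6.44 with estradiol, 7.49 with placebo and 3.33 in LFD. That list's summed level overlapped placebo, at 94.6 to 134 with estradiol, 62.7 to 110 with placebo and 42.9 to 73.5 in LFD. Pan-macrophage genes moved differently, summing to 101 to 250 with estradiol, 266 to 734 with placebo and 69.6 to 162 in LFD, with 0 of 19 genes outside both groups. Cd68, a lysosomal marker of macrophages, was at 4.80 to 10.4, 16.3 to 43.9 and 1.95 to 3.76 in the same order. The part of macrophage number in the values of Mgl2, Gas6 and Fcna was not tested.

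Growth factor and insulin signalling genes made up the third group. Igfbp4, a secreted binding protein that holds insulin-like growth factors (chromosome 11, 99041244 to 99054392), had scaled FPKM of 20.2, 19.6, 24.4, 21.8 and 23.7 in estradiol mice 1 to 5. Placebo mice had 9.50, 11.6, 8.77, 10.7 and 9.62, and LFD mice 12.0, 12.4, 14.9, 14.4 and 12.3. The 3 groups did not overlap, and the estradiol mean of 21.9 ± 2.09 (SD, n = 5) was 2.19 times placebo and 1.66 times LFD. Igfbp4 was the only 1 of 10 genes in the insulin-like growth factor list to meet the rule. With estradiol, 9 of the 10, Igfbp4 among them, had means above that of the lean and obese mice pooled. No share over all genes stands beside this count. The list's median log2 difference was 0.43. The summed level of that list was 138 to 143 with estradiol, 66.3 to 88.3 with placebo and 99.1 to 118 in LFD.

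Irs1, the docking protein that passes insulin receptor signals on (chromosome 1, 82233101 to 82291416), had 2.80, 3.91, 3.59, 5.58 and 3.44 with estradiol. Placebo mice had 0.658, 0.635, 0.553, 0.799 and 0.798, and LFD mice 2.04, 2.61, 1.72, 2.06 and 1.93. Obese placebo mice were lowest, lean mice in between, and estradiol mouse 1 lay just above LFD mouse 2. Grb10, an imprinted adaptor that restrains the insulin receptor (chromosome 11, 11930508 to 12038683), also lay above, at 2.10 to 2.57 with estradiol, 0.834 to 1.46 with placebo and 1.09 to 1.93 in LFD. A signal-passing and a signal-restraining member of the insulin list were thus both outside the other groups, among 18 genes at the level minimum with a median log2 difference of 0.12.

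Receptors and ligands of other growth pathways were present as single genes. Ntrk2, the receptor TrkB for brain-derived neurotrophic factor (chromosome 13, 58806569 to 59133970), ran from 4.69 to 6.24 with estradiol, from 1.71 to 2.70 with placebo and from 3.33 to 3.72 in LFD. Fgf10, a fibroblast growth factor needed for fat development, ran from 1.36 to 2.00, from 0.428 to 0.637 and from 1.09 to 1.31 in the same order. Tgfbr3, the co-receptor betaglycan, ran from 4.52 to 5.48 with estradiol, and LFD mouse 5 at 4.47 was just below. The placebo mean was the lowest of the 3 groups for each of these genes.

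Adcy5, an adenylyl cyclase that makes cyclic AMP, averaged 3.98 ± 0.84 with estradiol, 2.41 ± 0.29 with placebo and 1.63 ± 0.67 in LFD (SD, n = 5 each). C1qtnf1, a secreted relative of adiponectin, ran from 2.00 to 2.64 with estradiol and from 0.962 to 1.69 in the others. Cd55, which protects cells from complement and also marks fat progenitors (chromosome 1, 130439027 to 130462744), ran from 6.26 to 8.60 with estradiol and from 2.73 to 5.64 in the others. Cd55 was the only 1 of 20 genes at the level minimum in the progenitor and fibroblast list to meet the rule. That list's summed level was 316 to 461 with estradiol, 217 to 310 with placebo and 236 to 315 in LFD. The part of progenitors and fibroblasts in the matrix genes above was not tested.

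**Figure D2:**
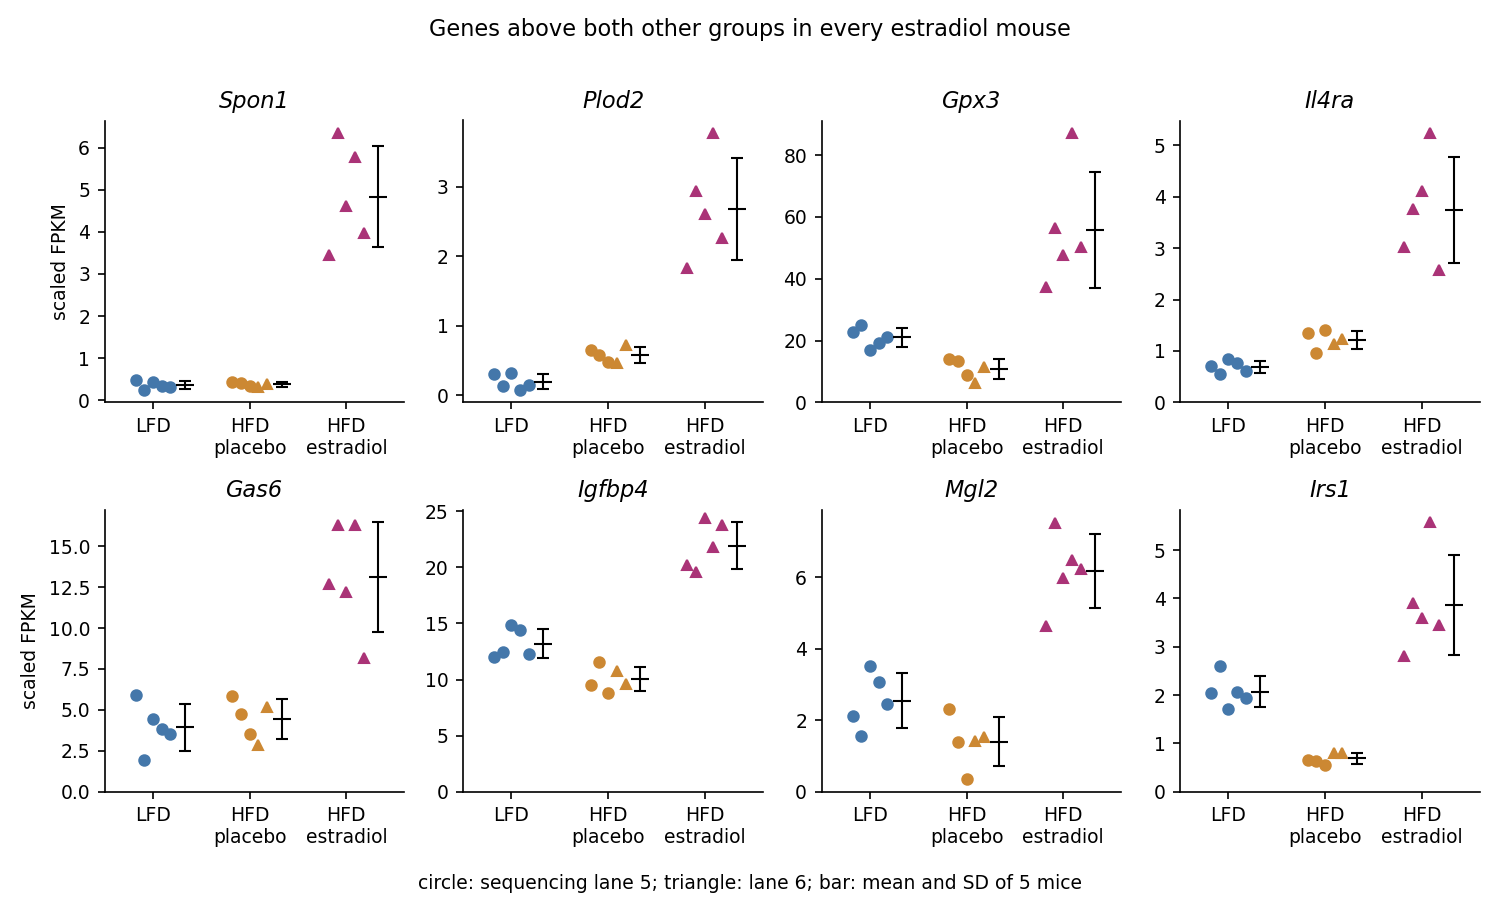
Scaled FPKM (linear axes) of 8 genes that lay above both groups; points are mice, circles on sequencing lane 5 and triangles on lane 6, and black bars give the mean and SD of 5 mice. Spon1 and Gas6 show lean and obese mice together at the bottom, Gpx3, Igfbp4 and Irs1 show obese placebo mice lowest, and Plod2 and Il4ra show lean mice lowest.

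The remaining genes above both groups had varied functions. Cped1, a gene with a cadherin-like domain that is linked to bone mass, ran from 5.39 to 7.08 with estradiol and from 1.84 to 3.94 in the others. Klhl13, an adaptor of a ubiquitin ligase, ran from 1.68 to 2.48 against 0.714 to 1.35. Sncg, the synuclein gamma gene that is abundant in fat cells, was the highest expressed of them, at 110, 136, 149, 133 and 179 with estradiol and at most 105 in the others, in placebo mouse 4. BC005764 had a ratio to the others of 4.49, and no position in the annotation used.

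Ratios to the 10 others were 2.34 for Bnc2, a zinc-finger protein of fibroblasts, 2.09 for Tmem100, a membrane protein of vessel cells, and 1.57 for Vezf1, a zinc-finger protein of vessel development. They were 1.73 for Cuedc1, 1.51 for Maged1, 1.44 for the focal adhesion protein Lpp, 1.41 for Sh3d19 and 1.38 for Wbp1. Smaller ratios belonged to Kdelc2, an endoplasmic reticulum glucosyltransferase, at 1.34, Tcn2, the vitamin B12 carrier transcobalamin, at 1.27, and Grina at 1.24. The lysosomal genes Gaa, the acid alpha-glucosidase, and Laptm4a had 1.20 and 1.17, the tetraspanin Cd81 had 1.19, and the ubiquitin ligase Rnf146 had 1.16. Ranges of such genes were narrow and lay side by side: Rnf146 was at 1.25 to 1.36 with estradiol and 0.831 to 1.24 in the others, and Laptm4a at 10.8 to 11.8 and 8.57 to 10.4.

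Of the genes below, those with known roles in lipid handling are given first. Fabp5, a fatty acid binding protein of macrophages and fat cells (chromosome 3, 10012548 to 10016607), had scaled FPKM of 4.24, 4.46, 4.55, 5.55 and 4.66 in estradiol mice 1 to 5. Placebo mice had 10.1, 12.1, 16.6, 11.7 and 11.5, and LFD mice 6.90, 9.48, 10.0, 6.53 and 8.39. Obese mice were highest, lean mice next and estradiol mice lowest, with means of 12.4 ± 2.44, 8.27 ± 1.54 and 4.69 ± 0.50 (SD, n = 5). Fabp5 was the only 1 of 18 lipid-associated macrophage genes outside both groups, with a list median log2 difference of -0.59.

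Gpd1, the glycerol-3-phosphate dehydrogenase that supplies the backbone of triglycerides (chromosome 15, 99717515 to 99725005), had 19.5, 19.2, 16.7, 12.1 and 15.9 with estradiol. Placebo mice had 21.7, 26.6, 31.6, 44.7 and 25.9, and LFD mice 27.3, 76.2, 36.8, 36.9 and 42.3. LFD mouse 2, the highest for Gpd1, was also the library with the highest brown fat sum, and placebo mouse 4, the highest of its group, had the next brown fat sum at 70.4; the part of brown fat in these values was not tested. Gpd1 was the only 1 of 27 mature adipocyte genes below both groups, in a list whose median log2 difference was 0.16.

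Gramd1b, a sterol transfer protein of the endoplasmic reticulum, had the widest gap below, at 0.466, 0.324, 0.447, 0.393 and 0.505 with estradiol. The other mice ran from 0.990 to 1.24 with placebo and from 0.923 to 1.18 in LFD, so lean and obese mice overlapped and stood at 2.55 times the estradiol mean. Npc2, which carries cholesterol within lysosomes, was close to LFD, at 7.55 to 8.43 with estradiol, 13.7 to 15.6 with placebo and 8.51 to 10.5 in LFD. Its lysosome list held no other gene outside both groups among 28, and the list's median log2 difference was -0.32. Fam213b, a prostaglandin F synthase (chromosome 4, 154895504 to 154899135), ran from 1.35 to 2.27 with estradiol and from 2.53 to 4.75 in the others. Erlin2, an endoplasmic reticulum protein that acts in sterol sensing, differed least, with the others 1.20 times above estradiol.

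C7, a component of the membrane attack complex of complement (chromosome 15, 4988762 to 5063740), had 1.35, 0.553, 0.801, 0.565 and 0.856 with estradiol. Placebo mice had 1.87, 2.64, 1.44, 1.51 and 3.29, and LFD mice 6.36, 2.67, 3.72, 2.71 and 3.15. Lean mice were mostly highest, and estradiol mouse 1 came near placebo mouse 3. Of 26 complement and coagulation genes at the level minimum, the complement inhibitor Cd55 was above and C7 below, with a list median log2 difference of 0.09.

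Mt1, a metallothionein that binds zinc and responds to glucocorticoids (chromosome 8, 94179082 to 94180327), had 14.3, 15.8, 12.2, 15.3 and 15.8 with estradiol. Placebo mice were spread widely at 41.3, 35.7, 21.5, 16.5 and 27.5, and LFD mice had 18.9, 19.7, 17.2, 22.8 and 21.1. Placebo mouse 4 was the nearest to the estradiol mice. In the list of androgen and glucocorticoid genes Mt1 was the only 1 of 15 outside both groups.

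Lctl, a lactase-like membrane protein (chromosome 9, 64117147 to 64138118), had 0.990, 0.629, 0.791, 0.627 and 0.688 with estradiol. Placebo mice had 2.71, 3.31, 4.82, 6.19 and 3.44, and LFD mice 1.22, 1.32, 1.65, 1.02 and 1.10. Obese mice stood far above lean ones, and estradiol mice lay just under the lean range. The actin capping protein Capza2, the proton pump subunit Atp6v1c1 and the Notch-modifying enzyme Lfng had the same order. Capza2 ran from 3.12 to 4.07 with estradiol, 6.08 to 8.11 with placebo and 4.33 to 4.98 in LFD. Atp6v1c1 reached 1.97 with estradiol and started at 1.98 in LFD, and Lfng reached 0.923 and started at 0.953.

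Plxnd1, a semaphorin receptor of vessels, ran from 1.28 to 1.89 with estradiol and started at 1.91 in LFD mouse 5. Parm1, a mucin-like membrane protein first described in the prostate, ran from 0.505 to 0.695 with estradiol, 0.755 to 1.09 with placebo and 1.08 to 4.64 in LFD, where mouse 2 was highest. The others stood at 1.52 times the estradiol mean for the splicing factor Srsf9, 1.45 for Kctd3, 1.42 for the phosphate transporter Slc20a1 and 1.36 for the corepressor Nab1. For all 4 the placebo and LFD means were closer to each other than to the estradiol mean.

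**Figure D3:**
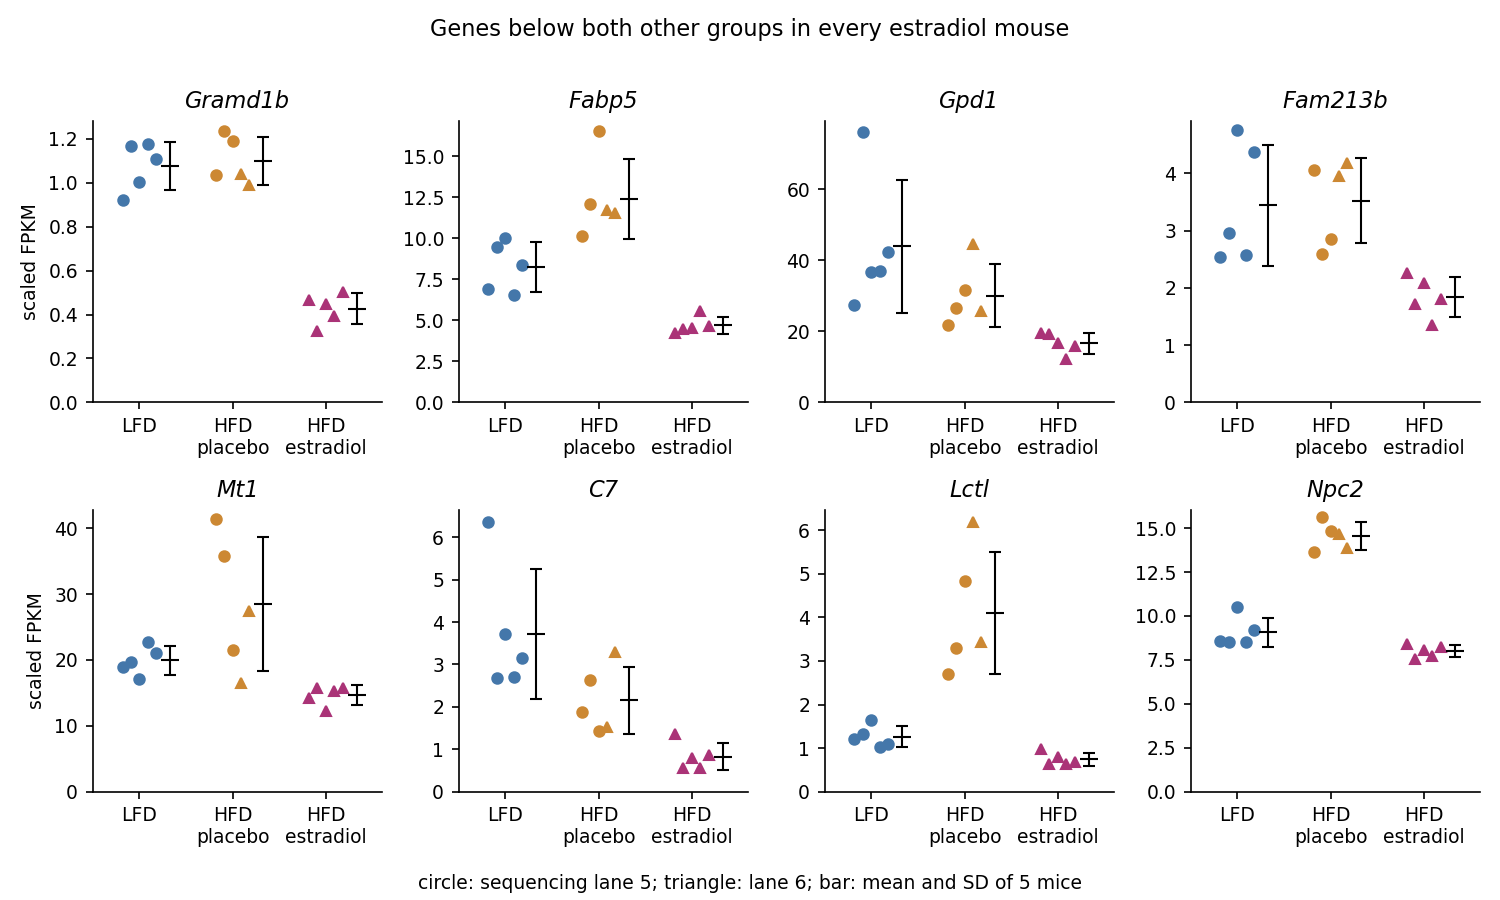
Scaled FPKM (linear axes from 0) of 8 genes that lay below both groups; points are mice, circles on sequencing lane 5 and triangles on lane 6, and black bars give the mean and SD of 5 mice. Fabp5, Lctl and Npc2 show obese placebo mice highest, with estradiol mice just under the lean range for Lctl and Npc2, and Gramd1b and Fam213b show lean and obese mice together.

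Estrogen receptors and their classical targets were looked up separately. None of 12 genes at the level minimum in the list of estrogen receptors and classical targets met the rule, and the list's median log2 difference was 0.04. Pgr, the progesterone receptor gene and a classical target, was at 0.0848, 0.0709, 0.0656, 0.0295 and 0.0517 with estradiol and at most 0.0077 in the others, so it was apart but far under the level minimum. Greb1, another classical target, was at 0.0065 to 0.0574 with estradiol and reached 0.0118 in LFD mouse 1. Oxtr, the oxytocin receptor gene, had 3.53, 10.3, 7.33, 14.4 and 11.5 with estradiol, 3.31 to 6.59 with placebo and 0.141 to 0.767 in LFD. It failed the rule because estradiol mouse 1 lay within the placebo range.

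Esr1, the gene of estrogen receptor alpha, was at 0.516 to 0.812 with estradiol, 0.112 to 0.321 with placebo and 0.523 to 0.938 in LFD, so estradiol and lean mice overlapped. Gper1, a membrane estrogen receptor gene, was at 0.061 to 0.153 with estradiol and 0.0277 to 0.221 in the others. Esr2 was at most 0.0092 in any library, and Cyp19a1, the aromatase gene, was listed at 0 in all. Lep, the leptin gene, was at 16.3 to 33.4 with estradiol, 44.5 to 62.5 with placebo and 16.7 to 34.1 in LFD.

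The lean and obese mice were compared with limma to place each gene on the diet axis; the choice of genes favours those whose LFD and placebo values are close. Over 5625 tested genes, 21.3% were higher and 21.9% lower in HFD placebo than in LFD at an adjusted p of 0.05. Of the 64 genes, 60 were tested, but 6 of these, Spon1, Plod2, Il4ra, Tmem100, Bnc2 and Hyal1, passed the filter on low values only through their estradiol libraries, so their diet tests are not used. Among the other 54, 11 were higher (20.4%) and 14 lower (25.9%) in placebo, shares near those of all genes. For 29 there was no call between diets, for 19 estradiol lay beyond the lean side and for 6 beyond the obese side. No share over all genes stands beside this split. Of the 5494 genes at the level minimum, 1054 were apart from placebo but overlapped LFD, against 317 the reverse. Overlap with lean mice alone was thus more common than overlap with placebo mice alone, and 3983 genes overlapped both. These are counts of overlapping ranges and do not measure distance. With FPKM as deposited 99.5% of the diet calls were higher in placebo, and with equal sums 92.1%, against 49.3% as scaled, and these scalings moved the median of all genes by 0.75 and 0.29 on the log2 scale.

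Mettl7a1, Irs1, Fgf10 and Gpx3 were among the genes above for which estradiol lay beyond the lean side. The difference between HFD placebo and LFD on the log2(scaled FPKM + 1) scale was -1.24 ± 0.16 (SE) for Mettl7a1 (limma adjusted p = 1.8e-05), -0.86 ± 0.12 for Irs1 (limma adjusted p = 2.5e-05) and -0.57 ± 0.07 for Fgf10 (limma adjusted p = 7.3e-06). It was -0.94 ± 0.22 for Gpx3 (limma adjusted p = 0.0024). Igfbp4, Cped1, Mgl2, Ntrk2, Lpp, Lama4, Gpc3 and Tgfbr3 completed this group. Placebo means were below LFD means for all of them, although single mice overlapped for some, such as Mgl2. In the lane 5 libraries alone the diet call was lost for Mgl2, Lpp and Tgfbr3 (limma adjusted p = 0.078, 0.22 and 0.096), and Fgf10 and Gpc3 could not be tested.

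C1qtnf1, Adcy5, Sncg and Pcolce2 lay beyond the obese side, all higher in placebo than in LFD. In the lane 5 libraries alone the call for Adcy5 was lost (limma adjusted p = 0.11) and that for Sncg was kept (limma adjusted p = 0.033). C1qtnf1 and Pcolce2 could not be tested there. The difference was 0.73 ± 0.08 (SE) for Pcolce2 (limma adjusted p = 5.9e-06) and 0.61 ± 0.16 for Sncg (limma adjusted p = 0.005). The other genes above whose tests are used, among them Gas6 (0.16 ± 0.22, limma adjusted p = 0.59), had no call between diets. The 4 genes Akr1cl, BC005764, Cuedc1 and Kdelc2 reached a scaled FPKM of 1 in fewer than 5 libraries, none of them LFD or placebo, and were not tested.

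Among the 18 genes below, Fabp5, Capza2, Nab1, Lfng, Lctl, Npc2 and Atp6v1c1 rose with the high-fat diet and lay beyond the lean side with estradiol. Lctl differed most between diets, by 1.14 ± 0.14 (SE, limma adjusted p = 1.3e-05), and Npc2 by 0.63 ± 0.07 (limma adjusted p = 7.2e-06). C7 and Parm1 fell with the high-fat diet, by 0.57 and 0.59 on the log2 scale (limma adjusted p = 0.027 and 0.019), and estradiol lay further down; with lane 5 libraries alone C7 was at an adjusted p of 0.052. The other 9 had no call. In the lane 5 libraries alone, 10 of the 18 genes could be tested, and 4 of the diet calls were kept. Mt1 was called there as well, higher in placebo by 0.64 (limma adjusted p = 0.022). With all libraries it had no call (limma adjusted p = 0.075).

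**Figure D4:**
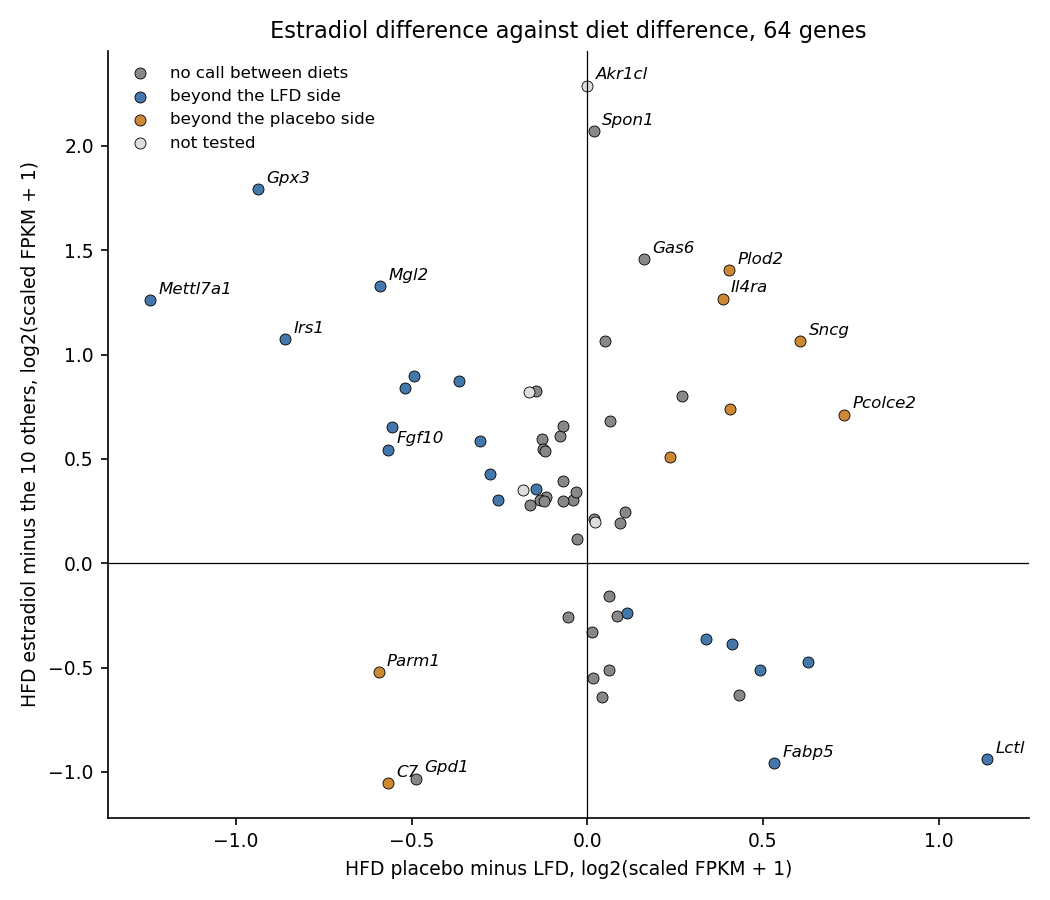
Each point is 1 of the 64 genes; the horizontal axis gives HFD placebo minus LFD and the vertical axis HFD estradiol minus the 10 others, both as differences of log2(scaled FPKM + 1), and colour gives the diet class (Plod2, Il4ra and Bnc2 are coloured by tests they entered only through their estradiol values). Spon1 and Akr1cl lie near 0 on the diet axis at the top, Mettl7a1, Gpx3 and Irs1 lie at the left, Pcolce2 and Sncg at the right, and Lctl at the lower right.

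Sequencing lane moved with the groups, and only the placebo group had libraries on both lanes. Limma called 0% of 5625 genes between placebo mice 4 and 5 on lane 6 and placebo mice 1 to 3 on lane 5. At an unadjusted limma p of 0.05 it listed 518 genes, 9.21% of them all. Among the 54 genes that passed the filter without their estradiol values, it listed 3, Ntrk2, Grina and Mt1. With equal sums the lane count was 722 and as deposited 6145, nearly all higher on lane 6. Of the 46 genes above, the median log2 difference between estradiol and placebo was 0.57 against lane 6 mice and 0.63 against lane 5 mice, and of the 18 below it was -0.51 and -0.60. The direction within lane 6 was therefore that of the choice of genes, which fixes it. LFD had no library on lane 6, so lane and group cannot be told apart for the distance to lean mice. In the lane 5 libraries alone, 36 of the genes could be tested between diets and 13 were called, beside 1343 called of all 3467 genes tested there. Of the 13, 12 were among the 17 of those 36 that were called with all libraries.

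**Figure D5:**
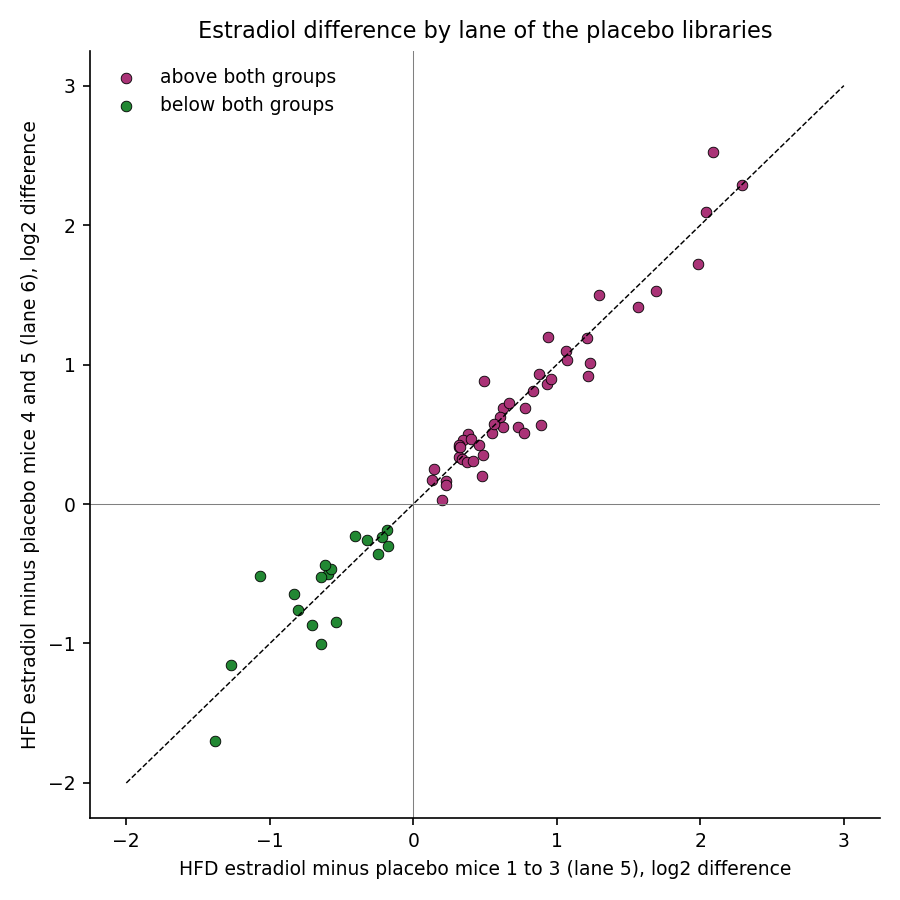
Each point is 1 of the 64 genes; the axes give the log2(scaled FPKM + 1) difference of HFD estradiol to placebo mice 1 to 3 (horizontal) and to placebo mice 4 and 5 (vertical), and the dashed line marks equal values. The genes lie along the line, with medians of 0.63 and 0.57 for those above and -0.60 and -0.51 for those below.

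The estradiol mice differed among themselves in how far they stood from the rest. Estradiol mouse 1 was the nearest to the other groups for 21 of the 46 genes above and 7 of the 18 below. Estradiol mouse 4 was the farthest for 16 and 6 genes, among them Akr1cl, Gpx3, Il4ra, Plod2, Irs1, Mettl7a1 and Gpd1. Mouse 1 was instead the highest for Fndc1, Lamb1, Cd55, Tgfbr3 and Ogn, and it also had the highest pan-macrophage sum of the group, 250, and the highest progenitor and fibroblast sum, 461. The nearest library on the other side was lean for 26 of 45 genes above, Akr1cl left out because the others tie at 0, and for 13 of the 18 genes below.

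On chromosome 11 lay 10 of the 64 genes, 15.6% against 8.85% of the genes at the level minimum. They were Gpx3, Igfbp4, Mgl2, Vezf1, C1qtnf1, Tmem100, Tcn2, Grb10, Cuedc1 and Gaa. The X chromosome held 3 of the 64 genes, Klhl13, Gpc3 and Maged1, and 2.80% of the genes at the level minimum.

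Promoter windows, from 250 bases before to 50 bases after a RefSeq start on GRCm38.p6, were found for 48 of the 64 genes, 57 windows in all. The full estrogen response element, searched as GGTCA and TGACC 3 bases apart on both strands, was in 0 of the 57 and in 0.07% of all 32851 windows. The hexamer AGGTCA, or TGACCT on the other strand, which is contained in some full elements and is shared by other nuclear receptors, was in 5 of 44 windows of genes above (11.4%), 6 of 13 windows of genes below (46.2%) and 16.3% of all windows. The 5 windows include 2 of Klhl13 that overlap and hold the same hexamer. The 6 windows belong to Slc20a1 with 2, Srsf9, Plxnd1, Lctl and C7, and the 2 windows of Slc20a1 lie at separate starts. A match is a description of letters and not a site. The window of Akr1cl is shown because the gene was listed at 0 in all 10 other libraries, and those of C7 and Lctl because they held the hexamer, in capitals, and had the largest ratios below. All are written 5′ to 3′ on the strand of the gene, at chr1:65032710-65033009 (minus strand), chr15:5063724-5064023 (minus) and chr9:64116897-64117196 (plus).
Akr1cl: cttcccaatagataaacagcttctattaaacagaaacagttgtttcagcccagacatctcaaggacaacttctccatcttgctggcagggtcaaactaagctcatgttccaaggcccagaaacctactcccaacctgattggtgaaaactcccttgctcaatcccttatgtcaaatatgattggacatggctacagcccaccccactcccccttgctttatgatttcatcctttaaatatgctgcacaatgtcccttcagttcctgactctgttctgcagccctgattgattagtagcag
C7: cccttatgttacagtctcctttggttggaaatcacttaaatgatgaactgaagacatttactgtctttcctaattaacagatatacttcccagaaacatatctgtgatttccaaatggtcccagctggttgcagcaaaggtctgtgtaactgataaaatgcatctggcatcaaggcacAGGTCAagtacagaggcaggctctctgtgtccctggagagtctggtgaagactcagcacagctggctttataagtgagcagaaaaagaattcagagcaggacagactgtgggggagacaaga
Lctl: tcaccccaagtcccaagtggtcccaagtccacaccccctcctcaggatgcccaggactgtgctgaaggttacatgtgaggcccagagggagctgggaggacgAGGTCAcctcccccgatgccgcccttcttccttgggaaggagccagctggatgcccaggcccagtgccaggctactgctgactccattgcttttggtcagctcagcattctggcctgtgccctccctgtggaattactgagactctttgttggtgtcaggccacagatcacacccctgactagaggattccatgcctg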

How the data were processed

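RNA of periprostatic fat from 15 mice was sequenced as stranded, ribosomal RNA-depleted libraries, per the labels' protocols. Per the submitters' processing notes, STAR, Cufflinks and the mm10 genome were used, and versions were not given. Annotation and treatment of reads shared between near-identical genes are not given in the sources used here, so paralogs such as the aldo-keto reductases, metallothioneins and fatty acid binding proteins are uncertain. The authors deposited FPKM per gene symbol for each library, 23995 genes, of which 18880 were above 0 somewhere.

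FPKM were divided by median-of-ratios factors taken over 5874 genes whose mean was 1 or more and that no library listed at 0 (factors 0.48 to 3.23). A gene was taken when all 5 estradiol values lay above, or all below, the 10 others and the mean was at least 1 on the higher side. From the deposited FPKM, log2(scaled FPKM + 1) values were computed. Such log2 differences understate changes of low genes. Testing used limma 3.58.1 under R 4.3.3, on genes that reached a scaled FPKM of 1 in 5 or more libraries (trend, robust, Benjamini-Hochberg, adjusted p 0.05), with all 3 groups in the fit, between diets and between lanes within placebo. The rule recovered planted changes in simulated data, and the limma fit between diets recovered the largest planted changes. Recovery of smaller changes, and of changes between lanes, is not given here. No 2 libraries were identical, and log2 correlations within groups ran from 0.899 to 0.971. Replicate numbers name different mice and were not used as pairs.

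The genes named in detail were up to 12 per direction (12 above, 10 below, where no more qualified) with the largest log2 gap between the nearest estradiol and the nearest other library among those with a mean of at least 2, without predicted genes and small RNAs, up to 5 per gene list, and genes of prior interest. All others are given more briefly, chosen after their values were seen. The genes, the 52 lists (1178 different genes) and the comparisons were chosen with earlier results of these data known. Of the lists, 17 held at least 1 of the 64 genes, 19 genes in all. Depth was estimated from the spacing of low FPKM in 1703 single-transcript genes, where 55.4% to 65.8% of the low values were multiples of the estimated unit (1 to 4 times, tolerance 2%). Positions are from GENCODE vM21 (GRCm38, the assembly of mm10). Alternatives were other scalings, level minimums, pseudocount and filter, a replicate block, libraries left out and single lanes.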

Additional observations from a re-analysis of the deposited data

Results flagged for a closer look

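Among 190 sets of 5 values (64 genes in 3 groups, without sets at 0 throughout), 14 held a library that stood far from the other 4. For independent, normally distributed values chance alone gives about 1 in 20. These sets share the same libraries and belong to genes chosen by their values, so that rate is only a rough guide. Of the 14, 7 stood high and 7 low. In the estradiol group these were Fndc1 at 3.73 in mouse 1, where the other 4 ran from 1.71 to 2.06, Lamb1 at 5.60 in mouse 1 (others 4.59 to 4.86) and Parm1 at 0.505 in mouse 1 (others 0.645 to 0.695). In placebo mice these were Lpp at 1.77 and Lfng at 2.05 in mouse 1, Pcolce2 at 2.23 and Gpc3 at 0.472 in mouse 3, and BC005764 at 0.310 in mouse 5. In LFD mice C7 was at 6.36 (others 2.67 to 3.72), Gaa at 2.03 and Rnf146 at 0.895 in mouse 1. Parm1 was at 4.64 (others 1.08 to 1.92) and Tcn2 at 4.51 in LFD mouse 2, and Mettl7a1 at 8.14 (others 10.98 to 11.8) in LFD mouse 3. All 3 estradiol values that stood apart were in estradiol mouse 1.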

How the results depend on the processing

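The number of genes above was 2 with FPKM as deposited, 19 at a level minimum of 5 and 1163 with lane 6 libraries only, where the comparison is with 2 placebo mice; the number below was 0, 5 and 1219 in the same settings, 2 with equal sums, 8 with equal sums without Mir6236 and 10 at a level minimum of 2. Leaving out 1 library gave 50 to 78 above and 18 to 31 below. The diet contrast gave 3908 genes without a filter and 1343 with lane 5 libraries only, against 2432 as reported, and 2023 to 2454 with 1 library left out. The lane contrast gave 6145 as deposited, 722 with equal sums, 1 with a pseudocount of 0.1, 13 without a filter, against 0 as reported, and 0 with each placebo library left out. With a replicate block the diet count was 2429 and the lane count 0; correlations of the deviations of same-numbered mice ran from -0.210 to 0.360, over 0.1 in 5 of 15 pairs, and 5 of 15 libraries correlated best with their own number, so the numbers were not taken as pairs. Of 30 named genes, none changed direction under any alternative. They were chosen for no overlap in these same libraries, so kept directions were nearly fixed by the choice and are no check of it. All 450 of their values with 1 library left out stayed within 1 SD between mice, and 10 moved further as deposited, 9 with equal sums, 16 with a pseudocount of 0.1 and 15 with lane 6 only. Low depth in LFD limits values near 1.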
